A study of Mus musculus with 9 samples.

Results

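The PYHIN genes are a cluster of interferon-inducible genes on mouse chromosome 1, and 7 of them (BC094916, Pydc3, Pydc4, Ifi204, Ifi203, Mndal and Aim2) were followed here through every library. They were taken by gene symbol from a table of 46517 genes. The set was put together because BC094916 and Pydc3 had been seen to be lower in plckGAPDH spleens, so the comparison of the spleens chose the members and is given for them as a description, without a test. All 7 symbols were present, and all 7 passed the filter on low values. The table holds 6 further genes of the family (Gm4955, Pyhin1, Mnda, AI607873, Ifi205 and Ifi202b), which serve as the nearest relatives.

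RNA was sequenced from 3 spleens of wild-type C57BL/6 mice (animals 5, 4 and 1), 4 spleens of plckGAPDH mice on the same background and, from the same line, lymph nodes of 2 animals (508 and 455). All mice were older than 18 months, and no other allele or treatment is given. In plckGAPDH mice the promoter of Lck, a kinase gene of the T cell lineage, drives a Gapdh transgene, and the labels call these mice tumour-developing. Animal 508 gave both a spleen and a lymph node. One plckGAPDH spleen has no animal number in the table and is called the unnumbered spleen, so it is not known that the 4 stem from separate animals. P-values therefore measure only the spread between samples.

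PYHIN proteins carry a Pyrin domain, which binds other Pyrin domains, a HIN domain, which binds double-stranded DNA, or both. AIM2 is the best known of them: it senses DNA in the cytosol and joins the adaptor ASC (gene Pycard) to activate caspase-1, which matures interleukin-1 beta and interleukin-18. Many genes of the family are induced by interferons through elements in their promoters, and in lymphoid tissue both lymphocytes and myeloid cells express them. The mouse cluster grew by duplication, so that several members are close copies of each other.

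The copies are plain in the promoters, which are shown for the 2 members whose promoters are near copies but whose levels differed (Pydc3 and Pydc4), for their close copy Gm4955 and for BC094916. Sequences are from RefSeq on GRCm38.p6, written 5′ to 3′ on the strand of the gene, and all 95 bases of each lie upstream of the annotated start. Capitals mark the match to GAAANNGAAA, the core of an interferon-stimulated response element.
BC094916, chr1:173536002-173536096, minus strand: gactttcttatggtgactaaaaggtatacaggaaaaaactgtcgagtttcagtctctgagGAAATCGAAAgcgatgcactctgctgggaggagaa
Pydc3, chr1:173673547-173673641, plus strand: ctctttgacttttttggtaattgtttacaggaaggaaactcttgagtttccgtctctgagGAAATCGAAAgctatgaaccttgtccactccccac
Pydc4, chr1:173599311-173599405, minus strand: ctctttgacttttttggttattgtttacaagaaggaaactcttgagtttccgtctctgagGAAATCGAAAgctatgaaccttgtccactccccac
Gm4955, chr1:173491324-173491418, minus strand: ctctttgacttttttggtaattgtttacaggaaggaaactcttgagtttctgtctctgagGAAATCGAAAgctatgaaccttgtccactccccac
The match begins 79 bases before the start of BC094916, 58 before that of Pydc3, 73 before that of Pydc4 and 40 before that of Gm4955. Over windows of 250 bases before to 50 bases after the start, Pydc3 and Pydc4 were identical at 282 of 285 aligned bases (98.9%). Gm4955 and Pydc3 were also 98.9% identical, whereas BC094916 and Pydc3 were 60% identical and BC094916 was closest to Pyhin1 (95.7%).

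GAAANNGAAA, searched on both strands with overlaps between matches allowed, was found in the windows of 5 of the 6 members that have one in the RefSeq table. These were BC094916, Pydc3, Pydc4, Ifi203 and Mndal. Aim2 had no match in its window, and Ifi204 had no entry. In the whole family 9 of 12 genes with a window held the motif, against 3.99% of all 27025 genes and 3.44% of all 32851 windows. Because the windows of close copies are nearly the same, the 9 genes are not independent of each other. A match describes the letters and was not tested for binding.

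Depth was estimated at 23600000 to 34200000 fragments per library. The libraries differed in content beyond genotype: wild-type spleen 5 held 33216 FPKM (fragments relative to gene length and library total) of the globin gene Hbb-bs, against 0.17 to 808 in the other 8, and its Xist was at 0.09 FPKM, against 31.2 to 59.7. Lymphocyte markers were present in all libraries, with summed B cell markers at 304 to 1836 FPKM and T cell markers at 70.1 to 644. The 4 stromal markers of lymph nodes summed to 1.41 and 10.1 FPKM in the lymph nodes and to 0.08 to 8.52 in the spleens, and per the labels' protocols RNA was prepared from splenocytes. Summed plasma cell markers stood at 4390 FPKM in plckGAPDH spleen 508 and at 2317 and 2563 in lymph nodes 508 and 455, against 70.3 to 323 in the other 6 libraries. FPKM is a share of each library, so an abundant transcript lowers the values of all others.

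BC094916 and Pydc3 were the 2 members with the lowest values in plckGAPDH spleens relative to wild-type spleens. BC094916, named Ifi214 in RefSeq, lies on chromosome 1 at 173519717 to 173535957 and was known first as a cDNA clone. It stood at 20.2, 13.9 and 12.2 FPKM in wild-type spleens 5, 4 and 1, and at 3.89, 1.53, 0.25 and 2.32 FPKM in the unnumbered plckGAPDH spleen and in spleens 547, 508 and 343. The lowest wild-type spleen lay above the highest plckGAPDH spleen, and spleen 508 was at the bottom. The means were 15.4 ± 4.22 FPKM (SD, n = 3) in wild-type and 2.00 ± 1.52 (SD, n = 4) in plckGAPDH spleens, a log2 fold change of -2.59 (SE 0.46) on the log2(FPKM + 1) scale. Behind these values stood about 700 to 1120 fragments per wild-type spleen, and about 13 (spleen 508) to 210 (the unnumbered spleen) per plckGAPDH spleen, by the estimated depth.

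Pydc3, a Pyrin-domain gene named Ifi208 in RefSeq, lies at 173673675 to 173698395. Its levels were 19.5, 12.9 and 8.92 FPKM in wild-type spleens 5, 4 and 1, and 4.11, 1.12, 0.54 and 1.52 FPKM in the unnumbered spleen, 547, 508 and 343. The order of the wild-type spleens was that of BC094916, and spleen 508 and the unnumbered spleen again formed the bottom and the top of the plckGAPDH group. The means were 13.8 ± 5.36 FPKM (SD, n = 3) and 1.82 ± 1.58 (SD, n = 4), and the log2 fold change was -2.47 (SE 0.45).

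Pydc4, the Pyrin-domain gene whose promoter is nearly that of Pydc3, did not share this pattern. It lies at 173566283 to 173599274 and is named Ifi213 in RefSeq. Its levels were 36.2, 31.3 and 25.7 FPKM in wild-type spleens 5, 4 and 1, and 30.2, 55.7, 39.3 and 54.3 FPKM in the unnumbered spleen, 547, 508 and 343. The groups overlapped, with 3 of 4 plckGAPDH spleens above every wild-type spleen. The log2 fold change was 0.49 (SE 0.40), and it was the only positive one among the 7 members.

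Ifi203 and Mndal, HIN-domain genes whose annotated bodies overlap on the same strand, were the most abundant members in wild-type spleens. Ifi203 (173920407 to 173942672) stood at 73.2, 65.8 and 81.0 FPKM in wild-type spleens 5, 4 and 1, and at 56.9, 29.7, 12.4 and 28.7 FPKM in the unnumbered spleen, 547, 508 and 343. The groups did not overlap, with a log2 fold change of -1.35 (SE 0.49). Mndal (173849126 to 173942491) stood at 150, 114 and 154 FPKM in the same wild-type spleens and at 126, 75.9, 33.0 and 71.3 FPKM in the same plckGAPDH spleens. Here the unnumbered spleen lay above wild-type spleen 4, so the groups overlapped (log2 fold change -0.99, SE 0.49). Under median-of-ratios scaling they did not, at 112 to 131 scaled FPKM in wild-type and 41.7 to 96.6 in plckGAPDH spleens.

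Ifi204 and Aim2, the members best known as DNA sensors, overlapped between the groups. Ifi204, a mouse relative of human IFI16, lies at 173747293 to 173766943. It was at 15.1, 17.8 and 4.15 FPKM in wild-type spleens 5, 4 and 1, and at 12.5, 7.44, 8.37 and 5.66 FPKM in the unnumbered spleen, 547, 508 and 343. Wild-type spleen 1 held the lowest value of all 9 libraries, and the log2 fold change of -0.34 (SE 0.48) turned to 0.011 without wild-type spleen 4 and to 0.83 without wild-type spleens 4 and 5. Aim2 (173350879 to 173466040) was at 31.6, 22.0 and 39.3 FPKM in wild-type and at 33.4, 30.0, 13.7 and 30.3 FPKM in plckGAPDH spleens, in the same order of animals. Only spleen 508 lay below the wild-type range. The log2 fold change was -0.24 (SE 0.43), and 0.046 without spleen 508.

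**Figure D1:**
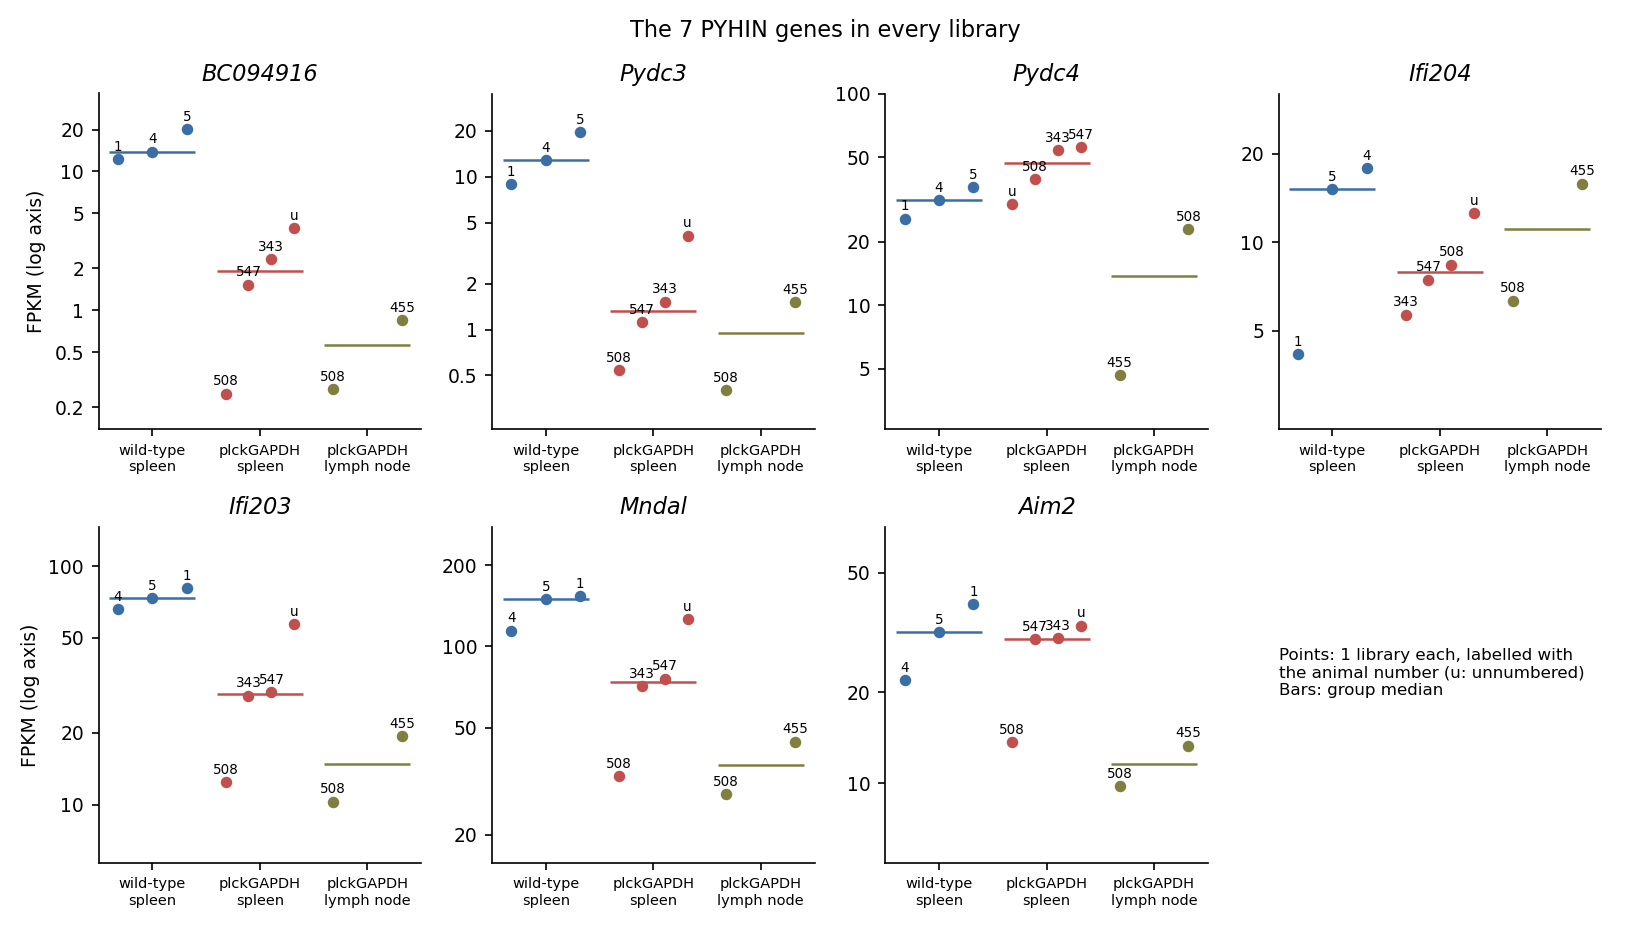
FPKM of the 7 genes (log axis, scaled for each gene) in all 9 libraries by group; each point is 1 library with its animal number (u, unnumbered) and bars are group medians. BC094916, Pydc3 and Ifi203 show no overlap between the spleen groups, while Pydc4 lies at 25.7 to 36.2 FPKM in wild-type and 30.2 to 55.7 in plckGAPDH spleens.

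Among the 7 members, 3 (BC094916, Pydc3 and Ifi203) were lower without overlap, against 3.88% of the 12607 genes tested. With median-of-ratios scaling 4 were, Mndal being the fourth. At a limma false discovery rate (FDR) under 0.05, 2 of 7 were counted as lower, against 1.23% of genes. Because the members were picked on this contrast, nothing is read from these counts. The 2 counted were BC094916 and Pydc3, with log2 fold changes of -2.59 and -2.47, and the next lowest member was Ifi203 at -1.35. The median over the members was -0.99, beside 0.02 over all genes tested. The count of 2 dropped to 0 with wild-type spleen 4, 5 or both left out, with no filter on low values, or when the 248 antigen receptor genes were left out of the table before adjustment. Over 16 alternative analyses the log2 fold changes ran from -3.31 to -1.85 for BC094916 and from -3.12 to -1.51 for Pydc3.

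Some markers of other cells also differed between the spleen groups. The 5 natural killer (NK) cell markers summed to 54.3 to 204 FPKM in wild-type and 4.70 to 47.5 FPKM in plckGAPDH spleens without overlap, and 2 of the 5, Gzma and Klrd1, were lower at a limma FDR of 0.0404 and 0.0486, beside 1.23% of all genes. Of the 8 B cell markers, Cr2 and Fcer2a, which mark mature B cells, were lower (limma FDR 0.00169 and 0.0137), while the sums overlapped at 354 to 1836 and 513 to 972 FPKM. None of the 8 T cell markers was called, and their sums were 217 to 447 FPKM in wild-type and 73.7 to 644 in plckGAPDH spleens. Klrd1 ran from 19.7 to 51.9 FPKM in wild-type and from 0.28 (spleen 508) to 9.10 (the unnumbered spleen) in plckGAPDH spleens, the same bottom and top library as for BC094916. Fcer2a did not share this order. Among plckGAPDH spleens it was highest in spleen 508, at 9.83 FPKM against 0.22 to 1.07 in the others. With antigen receptor genes left out of the adjustment, none of these marker calls remained, since limma then called 0 genes. In bulk RNA, fewer cells of a type and less RNA per cell cannot be told apart, and the part of cell content in the members' values was not tested.

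The 6 relatives were measured in the same fit, and none is named in the choice of the members, though some share reads with them. Gm4955, named Ifi206 in RefSeq, was at 50.0, 35.7 and 24.8 FPKM in wild-type spleens 5, 4 and 1, and at 13.7, 4.25, 1.06 and 4.41 FPKM in the unnumbered spleen, 547, 508 and 343. This contrast led to the choice of the family, and Gm4955 shares sequence with Pydc3, so its test is not independent of that choice. Gm4955 lay below every wild-type spleen in 4 of 4 plckGAPDH spleens, as did 3.88% of all genes. It was called lower in the main fit at a limma FDR of 0.0338 (-2.75 on the log2 scale, SE 0.57). It was called in 7 of 16 alternative analyses and not without wild-type spleen 5 (limma FDR 0.213), wild-type spleen 4 (0.205) or plckGAPDH spleen 508 (0.0582). The call was also lost with median-of-ratios scaling (limma FDR 0.0674), in the 3-group fit (0.0619), with a pseudocount of 0.1 FPKM (0.0784), without a filter (0.267), with receptor genes left out (0.110) and without wild-type spleens 4 and 5 (0.9996).

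Pyhin1, named Ifi209 in RefSeq, was also lower in every plckGAPDH spleen, as were 3.88% of all genes. It was at 102, 45.5 and 66.5 FPKM in wild-type spleens against 33.3, 16.8, 5.24 and 24.96 in plckGAPDH spleens. The difference did not pass the test (log2 fold change -1.95, SE 0.57, limma FDR 0.185). Mnda, named Ifi211 in RefSeq, lay the other way. It was at 8.85, 14.4 and 6.44 FPKM in wild-type spleens and at 49.2, 17.1, 35.1 and 18.7 FPKM in plckGAPDH spleens, higher without overlap, as were 3.39% of all genes. This difference did not pass either (log2 fold change 1.45, SE 0.46, limma FDR 0.251). Ifi205 and AI607873 overlapped between the groups, with log2 fold changes of -0.76 and -0.69 (limma FDR 0.796 and 0.802), and Ifi202b was listed at 0 in all 9 libraries.

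**Figure D2:**
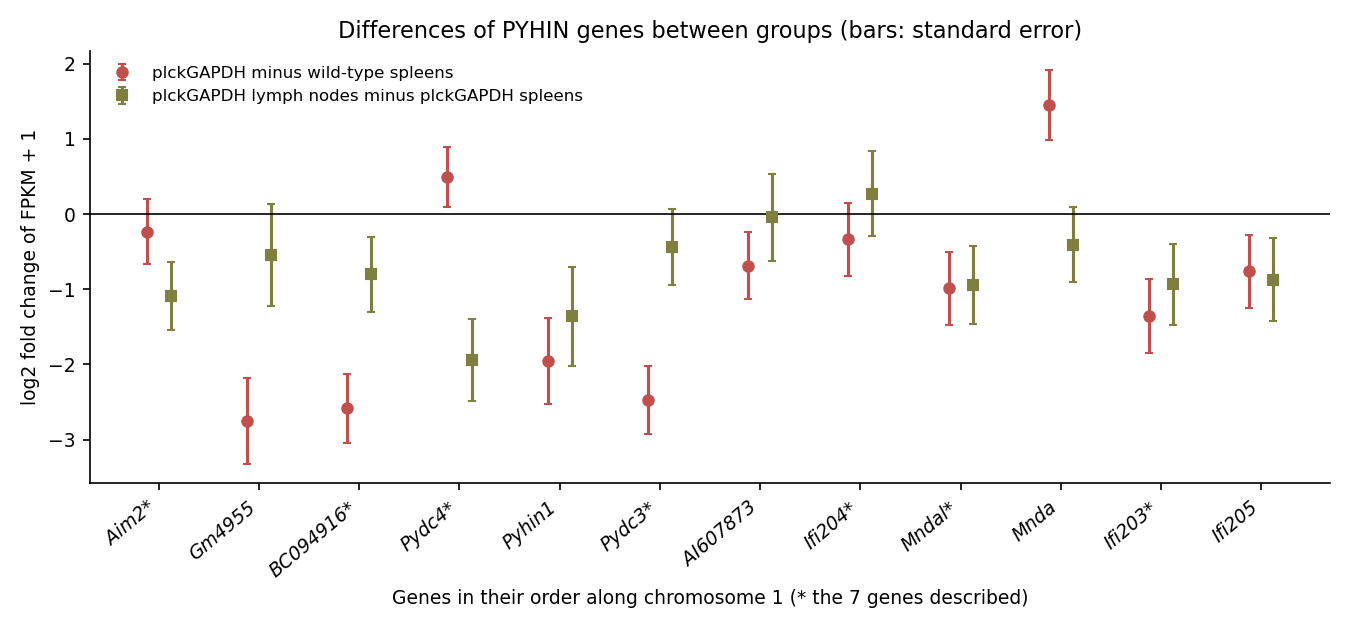
Log2 fold changes on log2(FPKM + 1), with standard errors, of plckGAPDH against wild-type spleens (circles) and of plckGAPDH lymph nodes against plckGAPDH spleens (squares), for 12 PYHIN genes in their order along chromosome 1; stars mark the 7 members. Among the circles, the genes at -2.75 (Gm4955), -2.59 (BC094916) and -2.47 (Pydc3) stand beside Pydc4 at 0.49, which lies between BC094916 and Pydc3.

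The lowest log2 fold changes, those of Gm4955, BC094916, Pydc3 and Pyhin1, lay in the stretch from Gm4955 to Pydc3, which also holds Pydc4. An order by position was not tested. From the Aim2 end, the log2 fold changes ran -0.24 (Aim2), -2.75 (Gm4955), -2.59 (BC094916), 0.49 (Pydc4), -1.95 (Pyhin1), -2.47 (Pydc3), -0.69 (AI607873) and -0.34 (Ifi204). They went on with -0.99 (Mndal), 1.45 (Mnda), -1.35 (Ifi203) and -0.76 (Ifi205). Of 68 other genes within 1 Mb of the cluster, many of them olfactory receptor genes, 7 passed the filter. None of the 7 was called by limma, 0 had an unadjusted p under 0.05, and their median log2 fold change was 0.13. Among them, the non-coding gene 4933439K11Rik was at -0.39 (limma FDR 0.915) and the receptor gene Slamf9 at 0.31 (limma FDR 0.985).

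Similar sequence limits how firmly a fragment is assigned to 1 gene. With transcripts cut into all words of 75 bases, the length of 1 read, Aim2 shared 0.0% of its words with the rest of the family and Ifi203 1.9%. BC094916 shared 10%, all with Pyhin1, and Pydc3 shared 11.8%, with Pydc4 (475 words) and Gm4955 (231 words). Pydc4 shared 8.1%, Mndal 9.9% and Ifi204 13.2%. Mnda stood apart with 63.6% shared, so its level depends most on how reads were split. The treatment of reads with several matches was not given in the sources used here.

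Ratios of 2 genes within a library do not depend on how the library was scaled, and 6 pairs of neighbours or close copies were chosen after their values were seen and are given without a test. The ratio of Pydc3 to Pydc4 was 0.539, 0.411 and 0.347 in wild-type spleens 5, 4 and 1, and 0.136, 0.0201, 0.0137 and 0.0280 in the unnumbered plckGAPDH spleen, 547, 508 and 343. It separated the spleen groups, but Pydc3 was picked for its low values in plckGAPDH spleens, so the separation was fixed in part beforehand. The promoters of both genes differ at 3 of 285 aligned bases, and no link between promoters and levels was tested. In the lymph nodes the ratio was 0.0175 for animal 508, near that animal's spleen, and 0.324 for animal 455, near the wild-type spleens. In lymph node 455 Pydc4 had its lowest value of the 9 libraries (4.66 FPKM). Pydc3 was at 1.51 FPKM there, within the range of the plckGAPDH spleens and below every wild-type spleen. Over the 9 libraries this ratio ranged 39.3-fold.

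The ratio of Mndal to Ifi203 was 1.74 to 2.05 in wild-type spleens, 2.22 to 2.66 in plckGAPDH spleens and 2.28 to 2.76 in lymph nodes. It also separated the spleen groups without overlap, but over a range of 1.59-fold. Pydc3 to Gm4955 was 0.36 to 0.39 in wild-type and 0.264 to 0.509 in plckGAPDH spleens. BC094916 to Pydc3 was 1.03 to 1.36 in wild-type and 0.463 to 1.53 in plckGAPDH spleens, so these ranges overlapped. BC094916 to Pyhin1, the pair that shares most reads with BC094916, was 0.183 to 0.305 in wild-type and 0.0477 to 0.117 in plckGAPDH spleens without overlap. BC094916 was picked for its low values in plckGAPDH spleens, so this separation too was fixed in part beforehand. Mnda to Ifi205 was 0.782 to 0.947 in wild-type and 2.81 to 9.75 in plckGAPDH spleens, and it rests on the gene with the fewest words of its own.

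**Figure D3:**
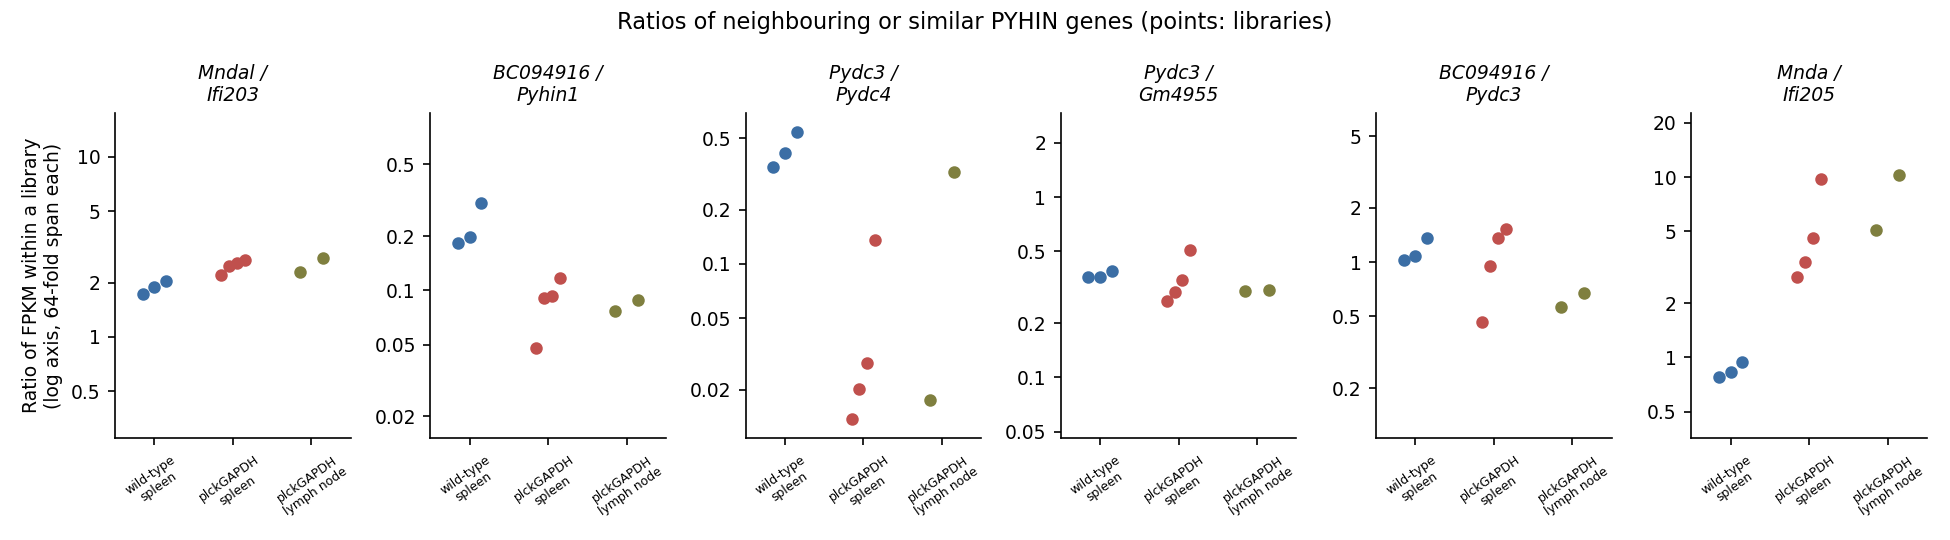
Ratios of FPKM of 6 pairs of PYHIN genes within each library (points; log axes that all span the same fold) in the 3 groups, wild-type spleens at the left. Pydc3 to Pydc4 ranges 39.3-fold over the 9 libraries and Mndal to Ifi203 1.59-fold.

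Shares within the 7 members were also compared, with the relatives left out. Their FPKM summed to 346, 278 and 325 in wild-type spleens 5, 4 and 1, and to 267, 201, 108 and 194 in the unnumbered spleen, 547, 508 and 343. Pydc4 made up 10.5%, 11.3% and 7.90% of that sum in the wild-type spleens and 11.3%, 27.7%, 36.6% and 28.0% in the plckGAPDH spleens. The unnumbered spleen thus stood at the share of wild-type spleen 4. The sum was lower in each plckGAPDH spleen than in each wild-type spleen, and this alone raises the share of an unchanged member. Pydc4 itself was also higher in spleens 547, 508 and 343 (55.7, 39.3 and 54.3 FPKM) than in any wild-type spleen (at most 36.2). The unnumbered spleen, at 30.2 FPKM, lay within the wild-type range. BC094916 made up 3.75% to 5.84% in wild-type and 0.233% to 1.46% in plckGAPDH spleens. Since BC094916 was picked for low values in plckGAPDH spleens, its lower share there was fixed in part beforehand. Mndal was the largest member in 8 of 9 libraries.

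The lymph nodes were not used to pick the members, and they were compared with the plckGAPDH spleens in a fit of 3 groups. BC094916 was at 0.27 FPKM in lymph node 508 and 0.85 in lymph node 455, and Pydc3 at 0.40 and 1.51, which overlapped the plckGAPDH spleens. Pydc4 was at 22.9 and 4.66 FPKM, and Aim2 at 9.79 and 13.3, both below every plckGAPDH spleen. Ifi203 was at 10.3 and 19.4, Mndal at 28.4 and 44.3 and Ifi204 at 6.32 and 15.8 FPKM, with overlap.

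None of the 7 members passed limma's test between lymph nodes and plckGAPDH spleens (FDR 0.359 to 0.727), and 2, Pydc4 and Aim2, had an unadjusted p under 0.05. Over all 13682 genes, 0.00731% were called lower, and 1546 had an unadjusted p under 0.05. Pydc4 had a log2 fold change of -1.94 (SE 0.54) and Aim2 of -1.09 (SE 0.45), with a limma FDR of 0.359 for each. Being lower in both lymph nodes was shared with 30.0% of all genes, and the median of all genes was -0.59. With median-of-ratios scaling, which moved the median of all genes to -0.01, Pydc4 was at -1.21 and Aim2 at -0.36, and both overlapped the plckGAPDH spleens. Pydc4 was at -2.98 without lymph node 508 and at -0.90 without lymph node 455. The median of the members moved from -0.93 to -0.19.

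The spleen and the lymph node of animal 508 can be set side by side. BC094916 was at 0.25 FPKM in the spleen and 0.27 in the lymph node, Pydc3 at 0.54 and 0.40, Ifi203 at 12.4 and 10.3 and Mndal at 33.0 and 28.4. Aim2 was at 13.7 and 9.79 and Ifi204 at 8.37 and 6.32. Pydc4 was at 39.3 and 22.9. The direction rests on the scaling: with median-of-ratios scaling the lymph node was the higher of both for every member except Pydc4 (49.7 and 41.9 scaled FPKM), as for Mndal (41.7 and 51.9). The 2 libraries also had the smallest summed NK cell markers of the 9, at 4.70 and 5.42 FPKM.

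The lymph nodes and the wild-type spleens differ in tissue and genotype together, and this contrast shares its wild-type spleens with the one that picked the members. BC094916 was lower by a log2 fold change of -3.39 (SE 0.53), Pydc3 by -2.91 (SE 0.53), Ifi203 by -2.29 (SE 0.57) and Mndal by -1.93 (SE 0.55). By FPKM, 6 of the 7 members lay below every wild-type spleen in both lymph nodes, as did 43.0% of all genes. The median of all genes was -0.58, and 0.02 with median-of-ratios scaling. With that scaling BC094916 was at -3.01, Pydc3 at -2.47, Ifi203 at -1.52 and Mndal at -1.14. Pydc4 then overlapped the wild-type spleens, at 41.9 scaled FPKM in lymph node 508 against 20.1 to 35.8. By limma's FDR 1 member, BC094916, was counted as lower, against 0.270% of genes. Nothing is read from these counts.

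The pathways around the family were followed through 4 lists of pathway genes. Of 13 inflammasome genes tested, which hold sensors of other inflammasomes, inhibitors and the shared machinery that AIM2 uses, limma called 0, 1 had an unadjusted p under 0.05, and the median log2 fold change between the spleens was -0.04. Over all 12607 genes in this comparison, 1116 had an unadjusted p under 0.05 and 48.4% were negative. Pycard, the adaptor that AIM2 binds, was at 29.4, 19.2 and 22.5 FPKM in wild-type and 57.9, 71.4, 30.2 and 30.4 in plckGAPDH spleens. It was higher in 4 of 4, as were 3.39% of all genes, but did not pass (log2 fold change 0.89, SE 0.44, limma FDR 0.626). Il1b, the cytokine that caspase-1 matures, was at 18.5, 16.8 and 5.31 FPKM against 2.74, 4.23, 4.48 and 0.76, at -1.81 on the log2 scale (SE 0.51, limma FDR 0.168). Il18bp, which neutralises interleukin-18, was at 0.73 (SE 0.43, limma FDR 0.737).

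The next list was of nucleic acid sensing genes. Of 20 table rows tested (Trex1 has 2), limma called 0, 1 had an unadjusted p under 0.05, 15 were negative, and the median was -0.23. Ddx58, which encodes the RNA sensor RIG-I, was at -1.18 (SE 0.44, limma FDR 0.381). Trim30a was at -0.91 (SE 0.47, limma FDR 0.651), and the RNA-sensing receptor gene Tlr7 at 0.62 (SE 0.46, limma FDR 0.856).

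Interferons act through receptors and JAK and STAT proteins on the promoters of responding genes. Of 18 genes of receptors and signalling, limma called 0, 1 had an unadjusted p under 0.05, 12 were negative, and the median was -0.32. Ifngr1, a chain of the interferon gamma receptor, was at -1.16 (SE 0.43, limma FDR 0.387), Usp18, which restrains the type I receptor, at -1.08 (SE 0.56, limma FDR 0.653) and the kinase gene Jak1 at -0.92 (SE 0.49, limma FDR 0.682).

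Of 32 interferon response genes tested, limma called 0, 9 had an unadjusted p under 0.05, 26 were negative, and the median was -0.70. Ifit3, an antiviral effector, was at 18.9, 14.5 and 3.32 FPKM in wild-type spleens 5, 4 and 1, and at 4.73, 0.87, 0.60 and 1.54 in the unnumbered spleen, 547, 508 and 343. The unnumbered spleen lay above wild-type spleen 1, and the log2 fold change of -2.10 (SE 0.57) did not pass (limma FDR 0.141). Slfn5 and Slfn1 of the Schlafen family had log2 fold changes of -1.67 (SE 0.54, limma FDR 0.251) and -1.43 (SE 0.52, limma FDR 0.378). Leaving out wild-type spleen 5 brought the list's median to -0.36, leaving out 4 and 5 to -0.15, and sample quality weights turned it to 0.23. The weights, whose estimation stopped before it converged, were 24.75 for wild-type spleen 1 and 0.637 and 0.326 for spleens 5 and 4. The weighted median thus leans on wild-type spleen 1, as does leaving out 4 and 5.

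**Figure D4:**
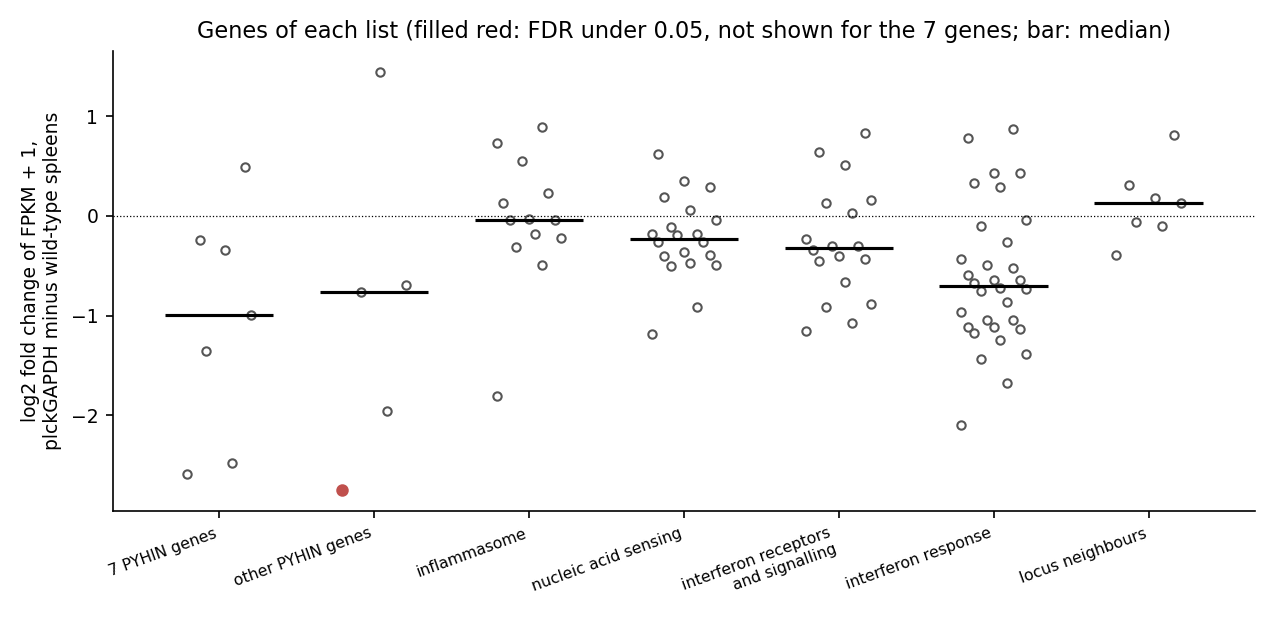
Log2 fold changes of plckGAPDH against wild-type spleens on log2(FPKM + 1) for the 7 members, their relatives and the genes of 5 lists; each point is 1 gene, bars are medians, and filled red points passed a limma FDR of 0.05 (not marked for the members). Medians run from -0.99 for the members to 0.13 for the neighbours of the cluster, and the interferon response genes lie at -0.70.

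The genes whose levels were most like each member's were found by a distance over the 9 libraries, which is 0 for equal patterns of log2(FPKM + 1) and is scaled to the member's own SD. For BC094916 the nearest of 12834 genes compared were Pydc3 (0.189), then Satb1, a chromatin organiser of lymphocytes (0.217), and Gm4955 (0.227). Then came Txk, a kinase of T and NK cells (0.245), Samd9l, an interferon-inducible gene (0.248), Klrk1, which encodes the NK receptor NKG2D (0.257), and the T cell receptor segment Trbv16 (0.268). Satb1 (0.216) and Txk (0.263) were also nearest to Pydc3 outside the family. Satb1 ran from 27.0 to 57.8 FPKM in wild-type and from 1.79 to 9.33 in plckGAPDH spleens. BC094916 and Pydc3 were both picked for low values in plckGAPDH spleens, so their closeness was fixed in part beforehand.

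Ifi203 and Mndal were close to each other, at 0.192 scaled to Ifi203, and both had Aim1 as the nearest gene outside the family (0.197 and 0.190). Aim1 shares a name pattern with Aim2 but is no PYHIN gene, and it lies on chromosome 10. The next were Stk26 for Ifi203 (0.252) and Gm8995 for Mndal (0.214). Outside the family, Pydc4 was nearest to Rpl39-ps (0.459) and Taf9b (0.569), and 3008 genes were closer than its nearest relative, Aim2 (0.903).

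Aim2 followed Med12, a subunit of the Mediator complex, at 0.0769 and the chromatin gene Arid1b at 0.137, nearer than any relative (Mndal, 0.624). Ifi204 was nearest to Il1rn, the interleukin-1 receptor antagonist gene (0.460), and the interferon-inducible gene Ifi44 (0.513). These distances rest on 9 libraries that share depth and cell content, and are given as a description. They were taken without median-of-ratios scaling, so differences in scale between libraries enter them. Aim2 ran from 9.79 to 39.3 FPKM over the libraries, and from 17.0 to 30.9 scaled FPKM with that scaling.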

How the data were processed

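RNA of 9 libraries was measured. The authors deposited 1 table of FPKM, which lists 46517 genes to 2 decimals. The build was mm10, per the submitters' processing notes, which also name Bowtie2 2.2.6, RSEM, Subread 1.5.0-p3 with featureCounts, and STAR 2.4.0a. The tool behind the FPKM was not given in the sources used here. Gene positions are from GENCODE M21 (GRCm38), which matched 46005 identifiers.

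Because the values are FPKM, the planned count test was replaced by the planned limma test (limma 3.58.1, R 4.3.3) with an intensity trend on log2(FPKM + 1), a scale that understates changes of low genes. The 7 spleens were fitted alone, with 1 FPKM needed in 3 spleens. The lymph nodes entered a fit of 3 groups, with 1 FPKM needed in 2 of 9 libraries. FDR is Benjamini-Hochberg adjusted over all genes tested, called under 0.05. The scripts were tested on simulated data.

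Depth was estimated from low FPKM at whole fragments per effective gene length, a length chosen after gene length alone had given few whole values. Between 82.7% and 87.1% of values were then whole within rounding, against 28.1% to 32.7% by chance. Such fragments are estimates and cover counting error only.

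The members, the gene lists and the tests were chosen with earlier results of these data known. Genes were named by rule: all members, all relatives, called genes and the 3 largest changes of each list, and the genes nearest to each member. One gene that the rule names is not reported here. The pairs for ratios and the markers singled out were chosen after their values were seen.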

Additional observations from a re-analysis of the deposited data

Results flagged for a closer look

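For 19 quantities (13 family genes and 6 ratios), the 4 plckGAPDH spleens were checked for a library far from the other 3, by its gap to the nearest value over the whole range (Dixon's test at 95%). Chance gives about 1 in 20 such groups, so about 1 was to be found by chance. Aim2 was flagged in plckGAPDH spleen 508, at 13.66 FPKM against 30.0 to 33.4 in the other 3. Its gap was 0.83 of the range, just above the limit, and 0.407 with median-of-ratios scaling, where it was no longer flagged. The ratio of Pydc3 to Pydc4 was flagged in the unnumbered plckGAPDH spleen, at 0.1363 against 0.0137 to 0.0280 in the other 3.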

How the results depend on the processing

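Between the spleens, 181 genes were called by limma, against 74 without a filter, 12 without wild-type spleens 4 and 5, 1863 with sample quality weights (whose estimation stopped before it converged) and 0 with antigen receptor genes left out. Leaving out 1 library gave 72 to 265. The members counted as lower, 2, were 3 with weights (Ifi203 added), 1 with a pseudocount of 0.1 FPKM and 0 without a filter, without wild-type spleens 4 and 5 or without receptor genes, and 0 to 2 with 1 library left out (0 without wild-type spleen 4 or 5). Lymph nodes against plckGAPDH spleens gave 2 called genes, 5 with a pseudocount of 0.1 FPKM or without a filter, 1 with median-of-ratios scaling and 0 to 28 with 1 library left out. Lymph nodes against wild-type spleens gave 44, then 3, 11 and 2 under these settings and 5 to 204 with 1 library left out. Some log2 fold changes changed sign. Between the spleens, Ifi204 was at 0.83 without wild-type spleens 4 and 5 and 0.99 with weights, AI607873 at 0.22 and 0.46, and Ifi205 at 0.34 with weights. With 1 library left out, Ifi204 ran from -0.92 to 0.011 (at its highest without wild-type spleen 4) and Aim2 from -0.46 (without wild-type spleen 4) to 0.046 (without plckGAPDH spleen 508). Between lymph nodes and plckGAPDH spleens, Mnda, AI607873 and Gm4955 were at 0.34, 0.40 and 0.050 after median-of-ratios scaling. With 1 library left out, Ifi204 ran from -0.33 to 0.87, AI607873 from -0.92 to 0.83 and Gm4955 from -1.22 to 0.13, each low without lymph node 455 and high without lymph node 508. Between lymph nodes and wild-type spleens, Ifi204 was at 0.65 after median-of-ratios scaling, and with 1 library left out ran from -0.67 to 0.54, as AI607873 did from -1.60 to 0.14. The cause was not tested. No paired analysis was possible because the groups share only 1 animal number, 508. With 2 lymph nodes, leaving out 1 assumes that the other varies like the spleens.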

Other observations

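Pyhin1, Ifi205, AI607873 and Gm4955 also had near genes outside the family over the 9 libraries. Gm4955 was nearest to Klrd1, an NK cell receptor gene (distance 0.172), and Pyhin1 to Tm6sf1 (0.188) and Cxcr5, the chemokine receptor of B cells and follicular helper T cells (0.206). Cxcr5 was at 34.3 to 71.1 FPKM in wild-type spleens, 2.91 to 23.4 in plckGAPDH spleens and 3.17 and 11.96 in the lymph nodes. Ifi205 was nearest to Ubash3a (0.313) and Ifih1, the gene of the RNA sensor MDA5 (0.336), and AI607873 to Frmd4b (0.247). Mnda was nearest to Dmwd (0.394).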
